A study of Mus musculus with 9 samples.

Results

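The genes described here are 10 mouse genes of cytosolic nucleic acid sensing: Ddx58 (RIG-I), Ifih1 (MDA5), Dhx58 (LGP2), Mavs, Cgas, Sting1, Zbp1, Tlr3, Tbk1 and Trex1. They were found by gene symbol, older symbols included, among the 16399 genes of the deposited expression tables, and all 10 were listed. The tables hold the poly(A) transcriptomes of 3 cultured lines of the murine colon carcinoma MC38, with 3 libraries each and 9 in all. MC38-P is the parental line, labelled with GFP and firefly luciferase. MC38-LM3a and MC38-LM3b are independently derived lines recovered from liver metastases after repeated rounds of injection of the labelled cells into the spleen of immunocompetent mice, so that all groups share the MC38 background and the labels, and no group was treated. Each derivative is a single selected line, so the spread between libraries is a spread between samples of that line and not between independent selections.

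Cells detect RNA and DNA that are out of place. RIG-I and MDA5 are RNA helicases that bind viral or misplaced double-stranded RNA and signal through the mitochondrial adaptor MAVS, whereas cGAS binds cytosolic DNA and makes the cyclic dinucleotide that activates STING. Both routes meet at the kinase TBK1, which phosphorylates the transcription factor IRF3 and so switches on type I interferon, and interferon in turn raises many of the sensors themselves. In tumor cells these routes are known for their part in immune recognition, and the DNA route is often silenced.

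Expression is given in TPM (transcript abundance), a level that is already divided by transcript length and brought to an equal total per library. At least 1 TPM was reached by 10875 to 11218 genes, depending on the library, and the correlation of library pairs across genes ran from 0.969 to 0.997. The read depth behind the values is unknown, so no counting error can be given. Within groups, libraries differed along transcript length: the deviation of MC38-P replicate 3 from its other replicates had a Spearman correlation with length of -0.65 across 11096 genes, and that of MC38-LM3a replicate 3 one of 0.67. Results for long transcripts such as Ifih1 (5470 nt) and Tlr3 (4407 nt) are therefore also given with the values corrected for length and GC content. The libraries are labelled epithelial, and the keratin genes Krt8 and Krt18 were high, but the epithelial markers Cdh1, Vil1 and Cldn7 stayed at or below 0.15 TPM in every library. Of the other epithelial markers, Krt19 ranged from 105 to 157 TPM and Epcam from 1.87 to 6.31 TPM. Cdx2 ranged from 0.28 to 2.86 TPM and Cldn4 from 0.21 to 0.72 TPM.

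Of the 10 genes, 7 had a promoter window in the RefSeq table of the GRCm38.p6 build, each of 300 bases from 250 before to 50 after an annotated start. The windows were searched on both strands for GAAA-NN-GAAA, the core of the interferon-stimulated response element, and for TTCNNNGAA, the core of the gamma-activated site. Dhx58, Sting1 and Zbp1 had no window and were not searched. Among the 7 searched genes, the first was present in Ddx58 and Ifih1 only, against 3.44% of all 32851 windows. The second was present in none of them, against 8.30% of all windows. The Tlr3 window lies inside the gene, so its outermost start was not searched. The sequences of both genes are shown because they carry the match; the Tbk1 window is shown as one without a match. All genes shown lie on the minus strand, and capitals mark the match. In Ddx58 the match begins at position 3 counted from the annotated start and reads GAAATCGAAA on the opposite strand (chr4:40239814-40240075). In Ifih1 the upstream bases (chr2:62646256-62646505) hold no match, and it begins at position 33 of the transcribed bases (chr2:62646206-62646235). For Tbk1 the upstream bases are given (chr10:121586795-121587044). A match is a run of letters and not a measured binding site.
Ddx58 upstream bases to the end of the match: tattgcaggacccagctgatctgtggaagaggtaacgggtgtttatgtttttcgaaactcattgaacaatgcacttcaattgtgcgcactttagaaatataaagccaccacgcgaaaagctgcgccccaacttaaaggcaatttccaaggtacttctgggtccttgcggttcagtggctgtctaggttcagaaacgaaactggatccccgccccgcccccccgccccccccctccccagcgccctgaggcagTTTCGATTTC
Ifih1 upstream bases: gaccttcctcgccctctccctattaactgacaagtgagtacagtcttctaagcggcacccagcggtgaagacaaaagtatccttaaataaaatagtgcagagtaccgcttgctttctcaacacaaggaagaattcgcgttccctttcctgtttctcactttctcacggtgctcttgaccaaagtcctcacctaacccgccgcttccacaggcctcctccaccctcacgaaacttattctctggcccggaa
Ifih1 match with flanking bases: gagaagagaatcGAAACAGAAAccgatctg
Tbk1 upstream bases: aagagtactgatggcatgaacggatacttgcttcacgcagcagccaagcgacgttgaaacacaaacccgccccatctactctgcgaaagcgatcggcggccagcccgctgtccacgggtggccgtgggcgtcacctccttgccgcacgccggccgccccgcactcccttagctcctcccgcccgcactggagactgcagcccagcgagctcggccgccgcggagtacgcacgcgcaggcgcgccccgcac

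The levels of the 10 genes spanned a wide range. Sting1 was highest in every group, followed by Tbk1, Ddx58 and Mavs, then Trex1, and Cgas was lowest throughout. In MC38-P the libraries of Ddx58 and Mavs overlapped, as did those of Tlr3 and Ifih1 and those of Zbp1 and Dhx58, so their order is not resolved there. In MC38-LM3a those of Tbk1 and Ddx58 overlapped. In MC38-LM3b no neighbours in the order overlapped. In both derivatives Ifih1 lay above Tlr3 and Dhx58 above Zbp1 without overlap. Of the 10 genes, 8 reached 1 TPM in all libraries of each group, 9 were tested, and Cgas was not tested because it never reached 1 TPM.

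**Figure D1:**
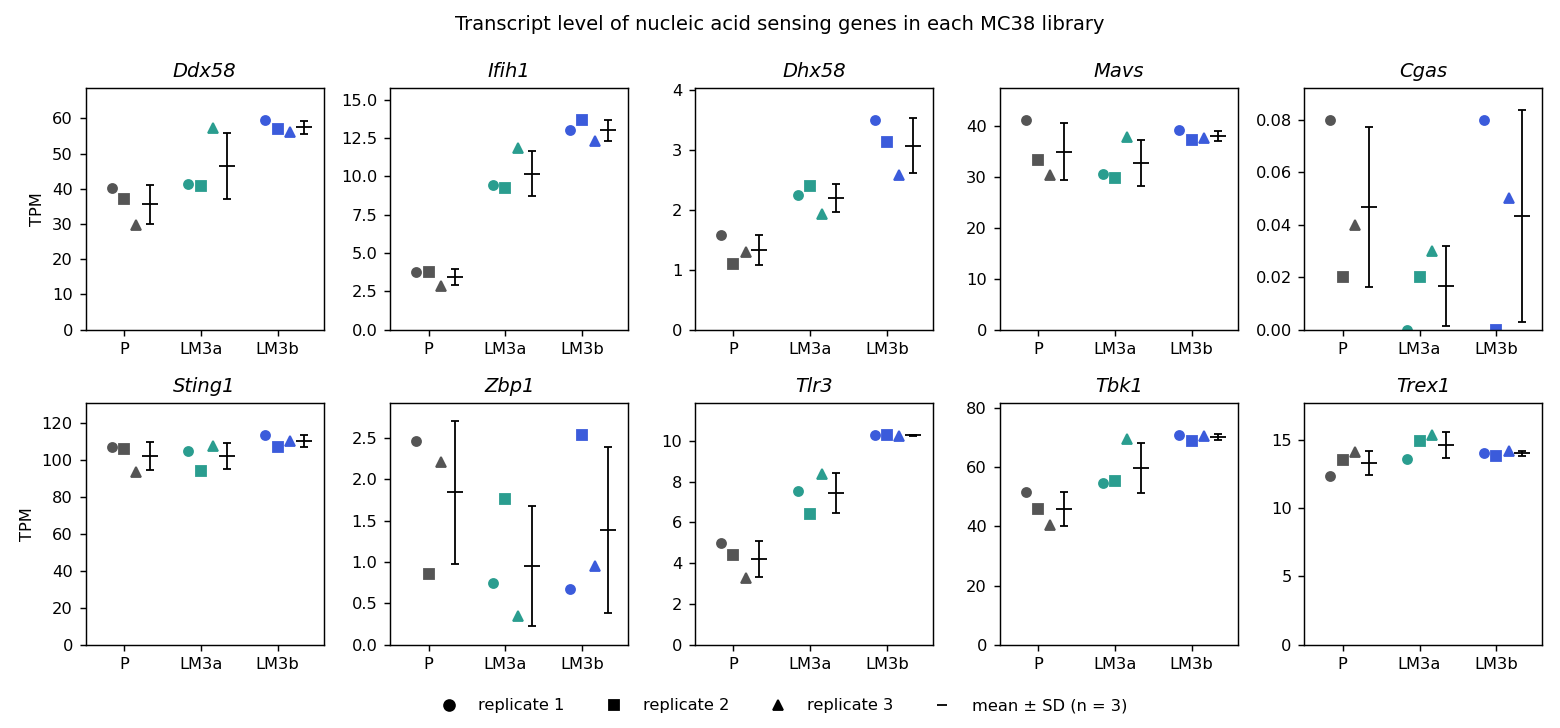
Each panel plots the transcript level in TPM of 1 gene in the 9 libraries, by line, with a symbol per replicate and the mean ± SD (n = 3) beside them. Ifih1 lies between 2.84 and 3.76 TPM in MC38-P and above 9 TPM in every derivative library, whereas Cgas never exceeds 0.08 TPM.

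Ifih1 encodes MDA5, the helicase that recognises long double-stranded RNA (NCBI Gene 71586, chr2:62595618-62646255 in GRCm38.p6). Its levels were 3.74, 3.76 and 2.84 TPM in MC38-P, 9.41, 9.24 and 11.9 TPM in MC38-LM3a, and 13.0, 13.7 and 12.3 TPM in MC38-LM3b. The lowest derivative library lay above the highest parental library, and MC38-LM3b lay above MC38-LM3a without overlap. Mean levels were 3.45 ± 0.525 (SD, n = 3), 10.2 ± 1.46 and 13.0 ± 0.705 TPM, which is 2.95-fold and 3.77-fold the parental mean. On the log2(TPM + 1) scale Ifih1 rose in MC38-LM3a by 1.33 with a standard error of 0.131 (adjusted p = 4.82e-05 in limma) and by 1.66 in MC38-LM3b (adjusted p = 8.14e-06). Its difference lay at percentile 99.3 of all tested genes in both comparisons. In these bulk samples, more cells with the transcript and more transcript per cell cannot be told apart. A long noncoding gene model overlaps Ifih1 and another overlaps Dhx58, and as the sources used here do not state whether strand was kept, their reads cannot be told apart. After correction for GC content and length the differences were 1.35 and 1.37, with adjusted p-values of 7.67e-08 and 5.17e-08 in limma.

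Ddx58 encodes RIG-I, the helicase that recognises short double-stranded RNA with a triphosphate end (NCBI Gene 230073, chr4:40203777-40239825). It was more abundant than Ifih1 in every library, at 40.2, 37.0 and 29.6 TPM in MC38-P, 41.5, 40.8 and 57.2 TPM in MC38-LM3a and 59.6, 56.9 and 56.1 TPM in MC38-LM3b. Neither derivative overlapped MC38-P, although MC38-LM3a replicates 1 and 2 lay just above the highest parental library and replicate 3 lay among the MC38-LM3b libraries. In MC38-LM3b the gene rose by 0.69 on the log2 scale (standard error 0.140, adjusted p = 0.00285 in limma), a 1.62-fold mean level. Across the alternatives this difference was as low as 0.42, and it was called in all 19. In MC38-LM3a the difference of 0.37 (95% interval 0.06 to 0.68) did not pass the test (adjusted p = 0.0732), and it was 0.21 without replicate 3 and 0.09 (adjusted p = 0.166) without replicate 3 of both MC38-P and MC38-LM3a. Corrected for GC content and length it was 0.37 with a smaller error and passed (adjusted p = 0.000388), as it did under quantile normalization and median centring.

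Dhx58 encodes LGP2, a helicase without signalling domains that modulates the other helicases (NCBI Gene 80861, chr11:100694884-100704271). It was the rarest of the RNA helicases, with 1.59, 1.10 and 1.30 TPM in MC38-P, 2.26, 2.41 and 1.94 TPM in MC38-LM3a and 3.51, 3.14 and 2.59 TPM in MC38-LM3b. The groups did not overlap in any pair. It rose in MC38-LM3a by 0.46 with a standard error of 0.133 (adjusted p = 0.0251 in limma) and by 0.81 in MC38-LM3b (adjusted p = 0.000874). The MC38-LM3a call was lost without MC38-P replicate 2 (adjusted p = 0.106), without MC38-LM3a replicate 1 (0.0751) or replicate 2 (0.0826), and when only the compared libraries were fitted (0.0514). As the fold change is taken after adding 1 TPM, it understates the change of so low a gene, whose mean levels were 1.66-fold and 2.32-fold the parental one.

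Mavs encodes the adaptor that RIG-I and MDA5 act through on the mitochondrial membrane (NCBI Gene 228607, chr2:131234063-131248025). Its levels were 41.2, 33.4 and 30.3 TPM in MC38-P, 30.6, 29.7 and 37.9 TPM in MC38-LM3a and 39.2, 37.2 and 37.7 TPM in MC38-LM3b. All groups overlapped. The differences from MC38-P were -0.09 (95% interval -0.36 to 0.18) and 0.13 (-0.14 to 0.40), and neither passed the test (adjusted p = 0.645 and 0.400 in limma). Without MC38-P replicate 3 and MC38-LM3a replicate 3 the MC38-LM3a difference was -0.29 and passed (adjusted p = 0.0121). With GC and length correction of all libraries it was -0.08 and did not. The summed level of the 3 RNA helicases ranged from 33.7 to 45.5 TPM in MC38-P, from 52.4 to 70.95 TPM in MC38-LM3a and from 70.9 to 76.1 TPM in MC38-LM3b.

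Tlr3 encodes the toll-like receptor that senses double-stranded RNA in endosomes (NCBI Gene 142980, chr8:45395665-45411075). Its levels were 4.96, 4.40 and 3.25 TPM in MC38-P, 7.53, 6.43 and 8.35 TPM in MC38-LM3a and 10.27, 10.3 and 10.25 TPM in MC38-LM3b. No groups overlapped, and the MC38-LM3b libraries were almost alike (SD 0.0252 TPM). Tlr3 rose in MC38-LM3a by 0.71 with a standard error of 0.142 (adjusted p = 0.00399 in limma) and by 1.13 in MC38-LM3b (adjusted p = 0.000167), which is 1.77-fold and 2.44-fold the parental mean. After correction for GC content and length these differences were 0.67 and 0.82 and still passed (adjusted p = 3.06e-05 and 6.28e-06). The adaptor gene Ticam1 (TRIF), through which TLR3 signals, rose by 0.41 and 0.73 (adjusted p = 0.0387 and 0.00141).

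Tbk1 encodes the kinase that RNA and DNA sensing share (NCBI Gene 56480, chr10:121546455-121586794). Its levels were 51.7, 45.8 and 40.4 TPM in MC38-P, 54.8, 55.3 and 69.6 TPM in MC38-LM3a and 71.1, 69.1 and 70.8 TPM in MC38-LM3b. Every derivative library lay above every parental one, and MC38-LM3a replicate 3 lay among the MC38-LM3b libraries. Tbk1 rose in MC38-LM3a by 0.37 with a standard error of 0.110 (adjusted p = 0.0278 in limma) and by 0.61 in MC38-LM3b (adjusted p = 0.00147). The MC38-LM3a call was lost without MC38-P replicate 2 (adjusted p = 0.0788) or replicate 3 (0.0726), when only the compared libraries were fitted (0.0812) and with the replicate block (0.0764). Without replicate 3 of both MC38-P and MC38-LM3a the difference was 0.17 and was called (0.0213). With GC and length correction the differences were 0.33 and 0.39 and both passed (adjusted p = 0.00018 and 5.60e-05).

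Of the genes of the DNA route, neither Sting1 nor Trex1 passed the test in any comparison with all libraries, and Cgas was near 0. Sting1 encodes the adaptor of the endoplasmic reticulum that binds the product of cGAS (NCBI Gene 72512, chromosome 18). It measured 107, 106 and 93.4 TPM in MC38-P, 105, 93.9 and 108 TPM in MC38-LM3a and 114, 107 and 110.4 TPM in MC38-LM3b. The groups overlapped, and the differences from MC38-P were 0.00 (95% interval -0.17 to 0.17) and 0.11 (-0.06 to 0.28), with adjusted p-values of 1.00 and 0.235 in limma. Differences within these intervals cannot be told from none.

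Cgas encodes the DNA sensor itself (NCBI Gene 214763, chr9:78430518-78443237). Its transcript was listed at 0.08, 0.02 and 0.04 TPM in MC38-P, 0, 0.02 and 0.03 TPM in MC38-LM3a and 0.08, 0 and 0.05 TPM in MC38-LM3b. No line stood out, no fold change is given at this level, and where the entry is 0 it is known only to be listed so. Sting1 thus stood at over 90 TPM in each library in which Cgas was below 0.1 TPM.

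Trex1 encodes the exonuclease that degrades cytosolic DNA (NCBI Gene 22040, chr9:109057932-109059723), and a readthrough gene model, Atrip-trex1, overlaps it. Its levels were 12.4, 13.5 and 14.1 TPM in MC38-P, 13.6, 14.9 and 15.4 TPM in MC38-LM3a and 14.0, 13.8 and 14.2 TPM in MC38-LM3b. The groups overlapped, and the differences of 0.13 (95% interval -0.08 to 0.34) and 0.07 (-0.14 to 0.28) did not pass the test (adjusted p = 0.369 and 0.561 in limma). Zbp1 encodes a sensor of left-handed nucleic acid that triggers cell death through RIPK3 (NCBI Gene 58203, chr2:173206612-173218959). It measured 2.46, 0.85 and 2.21 TPM in MC38-P, 0.75, 1.76 and 0.35 TPM in MC38-LM3a and 0.67, 2.54 and 0.95 TPM in MC38-LM3b. The groups overlapped, and Zbp1 varied more between libraries of 1 line than any other tested sensor, with a coefficient of variation of 47.1%, 76.2% and 72.7%. The differences of -0.55 (95% interval -1.31 to 0.20) and -0.28 (-1.03 to 0.48) did not pass the test (adjusted p = 0.265 and 0.512).

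In MC38-LM3a against MC38-P, 4 of the 9 tested genes were called higher and 0 lower at an adjusted p under 0.05, where 14.1% of all 11287 tested genes were called higher and 13.8% lower. In MC38-LM3b against MC38-P, 5 of 9 were called higher and 0 lower, against 35.6% and 11.2% of all tested genes. The genes called in MC38-LM3a, namely Ifih1, Dhx58, Tlr3 and Tbk1, were also called in MC38-LM3b, against 13.3% of tested genes called higher in both, and Ddx58 joined them there. Both comparisons use the same parental libraries. With the additional demand of a log2 fold change above 1, used in the study's definition of a differentially expressed gene, Ifih1 passed in MC38-LM3a (1.39% of tested genes were higher by that rule) and Ifih1 and Tlr3 passed in MC38-LM3b (2.76%). The Tlr3 pass depended on the processing, as its difference was as low as 0.78 among the alternatives and 0.99 with 1 library left out. The libraries did not overlap, with the derivative higher, for 5 of 9 genes in each comparison, against 20.3% of all tested genes for MC38-LM3a and 51.3% for MC38-LM3b.

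The median difference of the 9 genes from MC38-P was 0.37 in MC38-LM3a, where that of all tested genes was 0.00. In MC38-LM3b it was 0.61, where that of all tested genes was 0.21. Relative to that shift of all genes, Ifih1 stood 1.45 higher in MC38-LM3b, Tlr3 0.92, Dhx58 0.60, Ddx58 0.48 and Tbk1 0.40. Below it, Zbp1 stood at -0.49, Trex1 at -0.14, Sting1 at -0.10 and Mavs at -0.08. The share of higher genes among all calls in MC38-LM3b was 76.1%, but 51.4% under quantile normalization, 46.5% with median centring and 50.6% with GC and length correction. The same 5 genes were called higher under each of these scalings, in both derivatives.

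**Figure D2:**
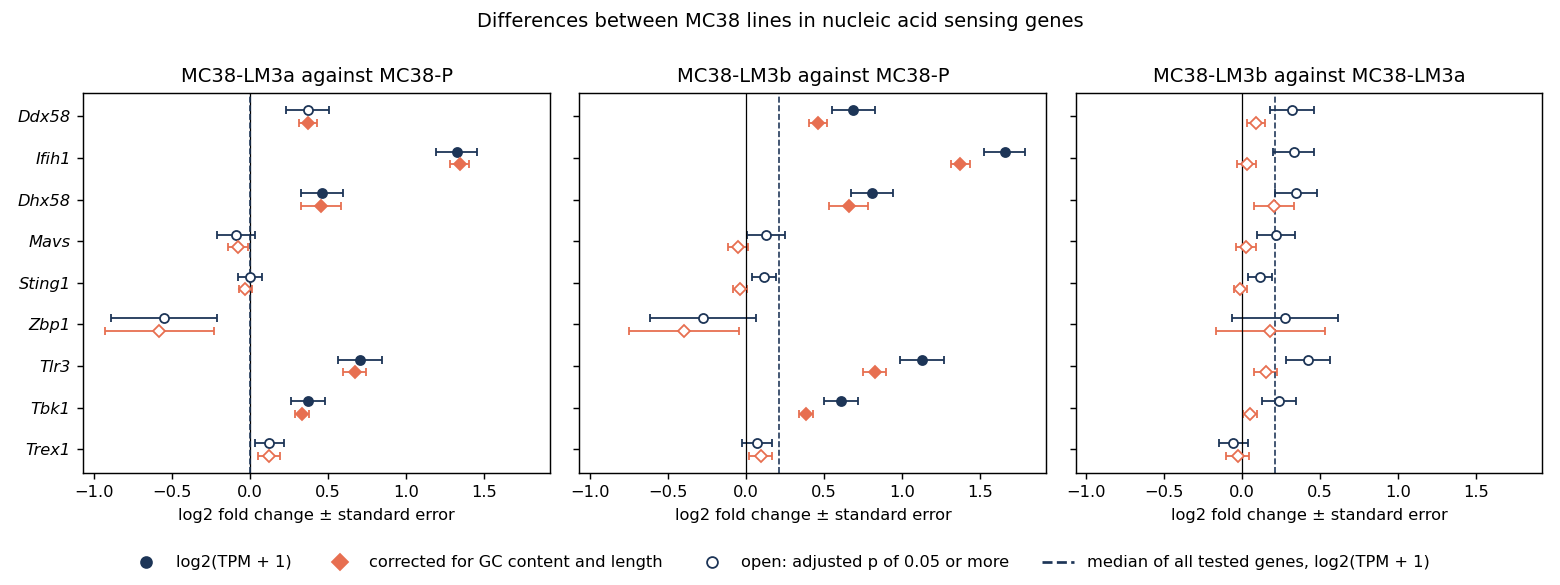
The panels plot the log2 fold change ± standard error of the 9 tested genes in each comparison, as measured on log2(TPM + 1) (circles) and corrected for length and GC content (diamonds), with open symbols for an adjusted p of 0.05 or more and a dashed line at the median of all tested genes. Ifih1 lies farthest from 0 in both comparisons with MC38-P, at 1.33 and 1.66, and no symbol is filled between the derivatives.

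Between MC38-LM3b and MC38-LM3a, 0 of the 9 genes passed the test in limma, against 0.0532% of all tested genes, and 4 had an unadjusted p under 0.05, against 38.1%. These were Ddx58, Ifih1, Dhx58 and Tlr3, with differences of 0.32, 0.33, 0.35 and 0.42. For Ifih1, Dhx58 and Tlr3 the libraries of MC38-LM3b all lay above those of MC38-LM3a, as they did for 38.4% of all tested genes. After correction for GC content and length the differences were 0.09 for Ddx58, 0.03 for Ifih1, 0.20 for Dhx58 and 0.15 for Tlr3, and none was called. Without MC38-LM3a replicate 3 and without that correction, 5 genes were called higher in MC38-LM3b (Ddx58, Ifih1, Mavs, Tlr3 and Tbk1), where 56.4% of all genes were called. Across 11096 genes, the Spearman correlation of the difference between the derivatives with length was 0.64.

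**Figure D3:**
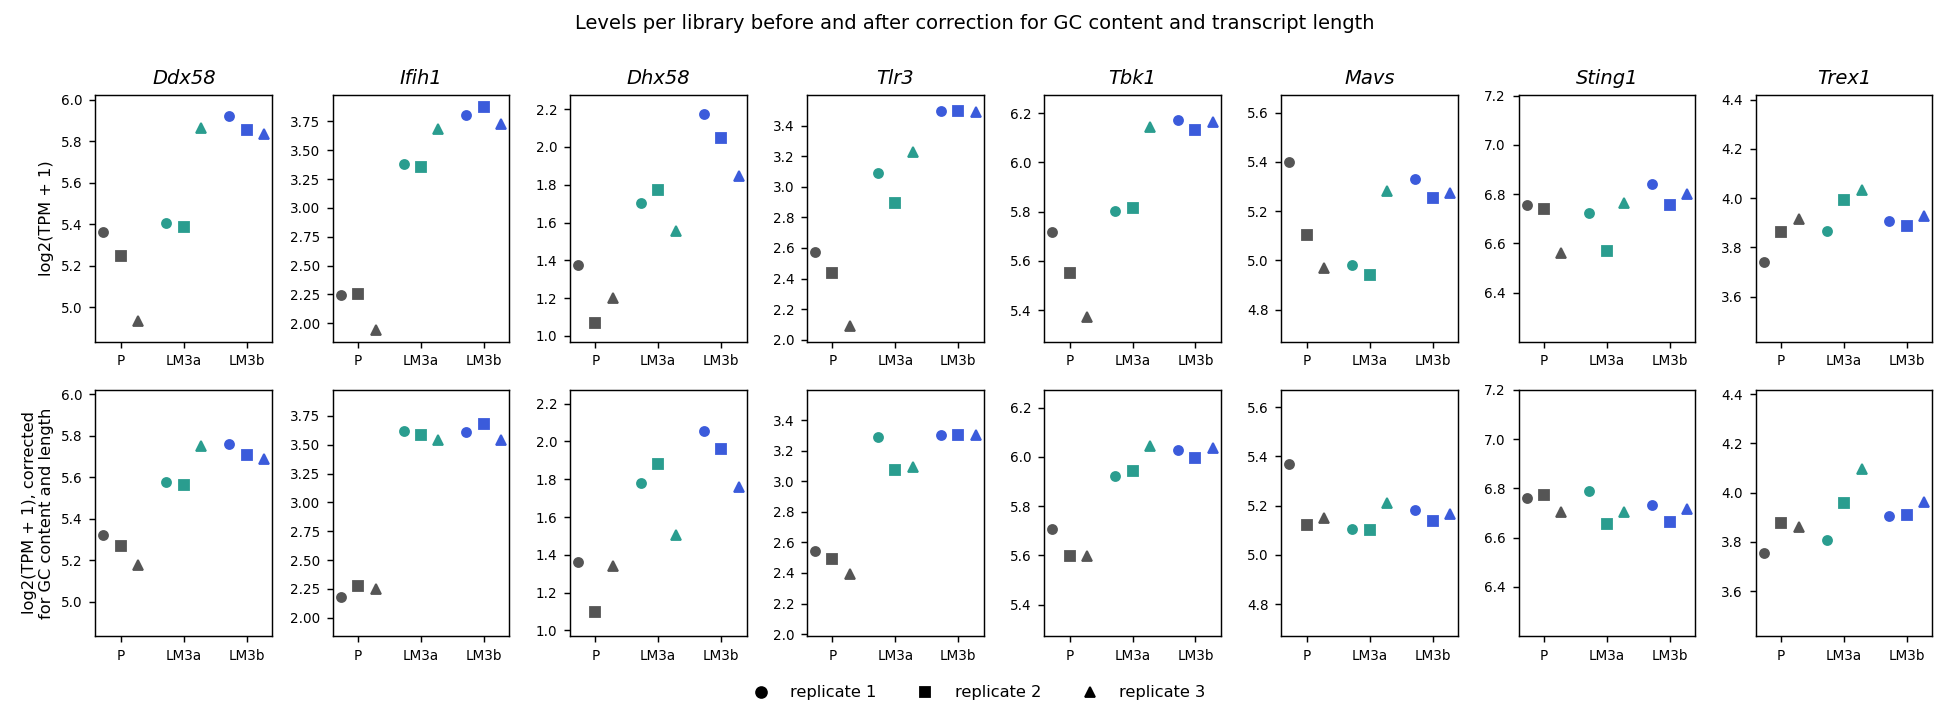
Levels of 8 genes per library on the log2(TPM + 1) scale before (top) and after (bottom) the correction for length and GC content, by line, with symbols for the replicates and axes that do not start at 0. After the correction all derivative libraries lie above MC38-P for Ifih1, Tlr3, Tbk1, Ddx58 and Dhx58. MC38-LM3a replicate 3 no longer lies highest of its line for Ifih1.

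The partners of the sensors were taken from 8 lists of 148 genes, of which 136 were listed and 118 tested. In MC38-LM3a 29 (24.6%, against 14.1% of all tested genes) were called higher and 10 (8.47%, against 13.8%) lower, and in MC38-LM3b 63 (53.4%, against 35.6%) were called higher and 7 (5.93%, against 11.2%) lower. With GC and length correction these counts became 50 (42.4%) and 22 (18.6%), against 27.0% of all genes called higher and 25.3% lower, and 58 (49.2%) and 29 (24.6%), against 29.6% and 28.9%. The median of all tested genes was 0.00 for MC38-LM3a against MC38-P and 0.21 for MC38-LM3b. In the same order, the list medians were -0.04 and 0.21 for partners of the helicases and MAVS, 0.06 and 0.28 for DNA sensing and -0.04 and 0.07 for nucleases and editors. They were 0.19 and 0.45 for kinases and adaptors, 0.14 and 0.38 for endosomal receptors, 0.31 and 0.47 for partners of ZBP1 and 0.33 and 0.46 for interferons and their targets. Between the derivatives 0 partners passed the test in limma and 49 of 118 had an unadjusted p under 0.05, against 38.1% of all tested genes. Under the other scalings the MC38-LM3b differences from MC38-P of partners named below were often smaller. At the lowest they were 0.18 for Aim2, 0.24 for Mlkl, 0.26 for Ripk3, 0.27 for Irf3, 0.29 for Eif2ak2 and 0.33 for Casp6, which were still called. Also still called were Rnaset2a at 0.33, Tank at 0.47, Rnf135 at 0.51 and Ifi203 at 0.62. Adar, at 0.13, and Trim25, which turned to -0.02, were called under no scaling. The differences of Cxcl10, Usp18 and Cmpk2, likewise never called, also turned negative. The falls of Pcbp2 and Slc19a1 reached -0.85 and -1.20.

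**Figure D4:**
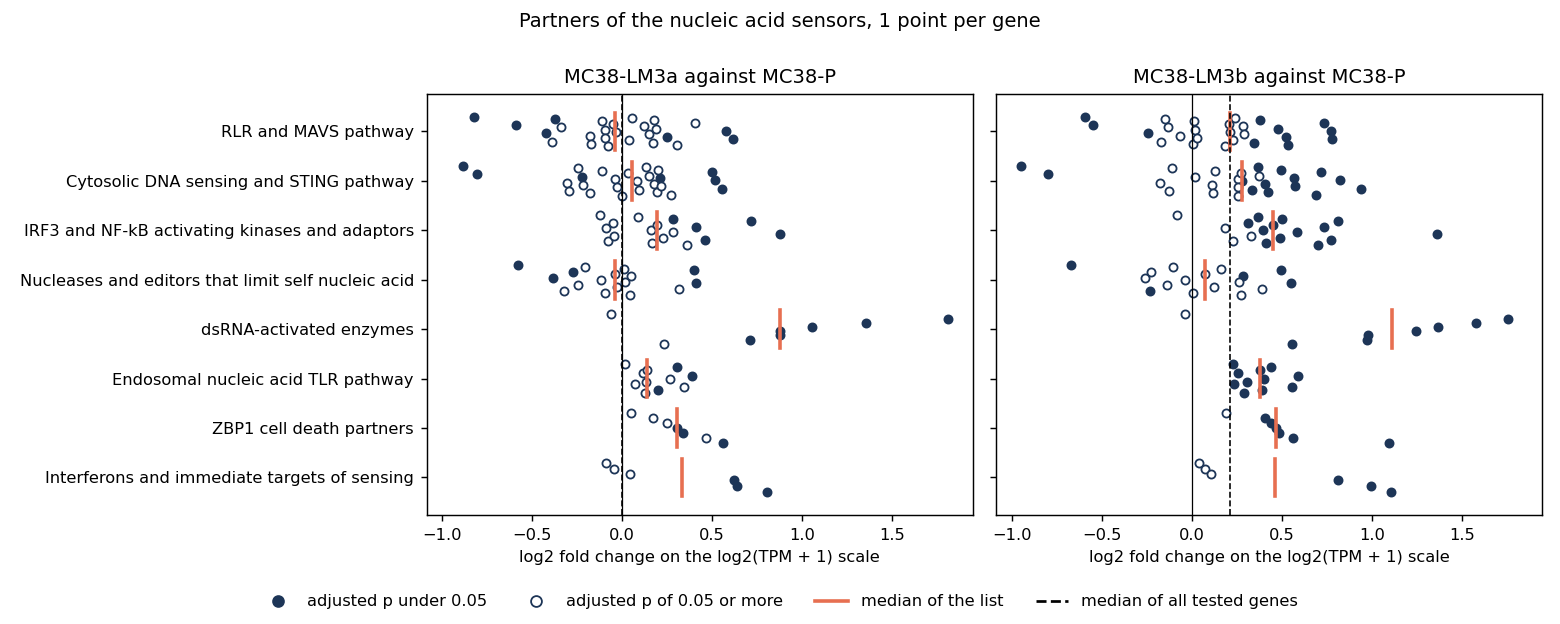
Each point is the log2 fold change of 1 partner gene on the log2(TPM + 1) scale, by list, filled where the adjusted p was under 0.05, with a bar at the median of the list and a dashed line at the median of all tested genes. The genes of double-stranded RNA-activated enzymes lie farthest to the right, with medians of 0.88 and 1.11.

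Most of the enzymes that double-stranded RNA switches on were called higher in the derivatives. Of 8 tested, 6 passed in MC38-LM3a and 7 in MC38-LM3b, each of them higher, against 14.1% and 35.6% of all tested genes called higher. Oas1a, an oligoadenylate synthetase, rose from 1.14 ± 0.268 TPM (SD, n = 3) to 6.46 ± 0.546 and 6.19 ± 0.366 TPM, a difference of 1.81 and 1.76. In MC38-P replicate 1 Oas1a lay at 0.85 TPM, so it was tested only because derivative libraries also reached 1 TPM. Oasl1, a member of the same family that does not make oligoadenylate, rose by 1.36 and 1.25 (adjusted p = 0.000134 and 0.000164 in limma), and Oas3 by 0.88 and 1.37. Eif2ak2, the kinase PKR, differed by 0.24 in MC38-LM3a, which did not pass, although under the other scalings it did at about that size (0.23, adjusted p = 0.012 with the correction), and rose by 0.56 in MC38-LM3b. Reads of the near-identical Oas1 genes may have been divided among them in the authors' quantification, so the level of Oas1a alone is uncertain. The directions held under quantile normalization, median centring and the correction for GC content and length, where the list's medians lay between 0.88 and 0.97. Eif2s1, the translation factor that PKR phosphorylates, differed by -0.06 and -0.04 and did not pass, but it was called lower in MC38-LM3b with median centring and with the correction.

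Among the kinases and adaptors that lead to IRF3 and NF-kB, 5 of 17 (29.4%) passed in MC38-LM3a and 13 (76.5%) in MC38-LM3b, each of them higher, against 14.1% and 35.6% of all tested genes. Ikbke, the inducible kinase related to Tbk1, rose from 3.48 ± 0.580 TPM to 7.31 ± 1.84 and 10.5 ± 0.333 TPM, by 0.88 and 1.36 (adjusted p = 0.00229 and 0.000111 in limma). Irf7, the interferon-induced factor that amplifies the response, rose by 0.72 and 0.81, from a low 1.27 ± 0.356 TPM to 2.70 and 2.94 TPM. Irf3 rose by 0.28 and 0.49. Tank, a scaffold of TBK1, rose by 0.46 and 0.77. With the correction 12 of 17 (70.6%) were higher in each derivative, against 27.0% and 29.6% of all genes, and 1 was lower.

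The 26 tested partners of the helicases and MAVS did not move one way. In MC38-LM3a 3 (11.5%, against 14.1% of all tested genes) were called higher and 4 (15.4%, against 13.8%) lower. In MC38-LM3b 8 (30.8%, against 35.6%) were called higher and 3 (11.5%, against 11.2%) lower. The balance in MC38-LM3b turned with the scaling, to 6 higher and 9 lower with median centring (against 22.9% and 26.4% of all genes) and to 8 higher and 11 lower (42.3%, against 28.9% of all genes) with the GC and length correction. Under quantile normalization it did not turn, with 6 higher and 5 lower, against 25.9% and 24.5% of all genes. Rnf135 (Riplet), the ubiquitin ligase that activates RIG-I, rose by 0.62 and 0.77 (adjusted p = 0.00083 and 0.000148 in limma). Pcbp2, an RNA-binding protein that directs MAVS to degradation, fell by 0.82 and 0.59, from 847 to 477 and 559 TPM. Nlrx1, a mitochondrial inhibitor of MAVS, rose by 0.58 and 0.78. Trim25, another ligase of RIG-I, differed by -0.08 and 0.24 and did not pass.

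Of 26 tested partners of DNA sensing and STING, 4 were called higher (15.4%, against 14.1% of all tested genes) and 3 (11.5%, against 13.8%) lower in MC38-LM3a, and 12 higher (46.2%, against 35.6%) and 2 (7.69%, against 11.2%) lower in MC38-LM3b. The latter counts were 8 and 6 with median centring, against 22.9% and 26.4% of all genes, and 13 and 8 with the GC and length correction, against 29.6% and 28.9%. Ifi203, a member of the interferon-inducible p200 family whose near-identical copies may share reads, rose by 0.50 and 0.94 (adjusted p = 0.0453 and 0.00135 in limma). Slc19a1, a carrier that imports cyclic dinucleotides, fell by 0.88 and 0.95, from 27.9 to 14.7 and 14.0 TPM. Aim2, the DNA sensor of the inflammasome, measured 54.1, 62.1 and 72.4 TPM on average, a difference of 0.19 in MC38-LM3a that passed under quantile normalization and median centring only, and a rise of 0.42 in MC38-LM3b. Enpp1, which hydrolyses the product of cGAS outside the cell, never exceeded 0.11 TPM.

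Nucleases and editors that limit self nucleic acid had 2 of 17 called higher (11.8%, against 14.1% of all tested genes) and 3 lower (17.6%, against 13.8%) in MC38-LM3a. In MC38-LM3b 3 were higher (17.6%, against 35.6%) and 2 lower (11.8%, against 11.2%). Adar, the editor of double-stranded RNA, differed by 0.04 and 0.39, neither past the test (adjusted p = 0.874 and 0.065 in limma). Rnaset2a rose by 0.41 and 0.55, although its copy Rnaset2b may share its reads, and Dnase1l3 fell by 0.58 and 0.67 from 1.93 ± 0.437 TPM. Among derivative libraries Dnase1l3 reached 1 TPM only in MC38-LM3a replicates 1 and 2 (1.03 and 1.04 TPM). It was thus tested only because of MC38-P, where it is higher, and its fall, counted above, is a description. With the correction for GC content and length the calls in MC38-LM3b became 2 higher and 8 lower (47.1%, against 28.9% of all genes).

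Of the endosomal receptors beside TLR3, Tlr7 and Tlr9 never exceeded 0.95 and 0.56 TPM, and Unc93b1, the chaperone on which they and TLR3 depend, never exceeded 0.06 TPM. Among the 11 tested genes of that list, 3 were called higher in MC38-LM3a and 11 in MC38-LM3b, against 14.1% and 35.6% of all tested genes. The latter count was 4 under quantile normalization (36.4%, against 25.9%), 4 with median centring (against 22.9%) and 7 with the correction (63.6%, against 29.6%). Cd14, a co-receptor, rose by 0.39 and 0.44 (adjusted p = 0.0191 and 0.00658 in limma), but the MC38-LM3b difference was as low as 0.19 and was not called under quantile normalization or median centring. Of 7 partners of ZBP1 in cell death, 3 were called higher in MC38-LM3a (42.9%, against 14.1% of all tested genes) and 6 in MC38-LM3b (85.7%, against 35.6%), among them the kinase gene Ripk3 (0.34 and 0.48) and Mlkl, the executor of necroptosis (0.31 and 0.47). Casp6 rose by 0.56 in each line. Under quantile normalization, median centring and the GC and length correction 6 of the 7 were called higher in MC38-LM3a too, against 21.5%, 19.8% and 27.0% of all genes. Cflar, the inhibitor of caspase-8, differed by 0.47 in MC38-LM3a, which did not pass (adjusted p = 0.0723) but did under the other scalings, and rose by 1.10 in MC38-LM3b (adjusted p = 0.000779).

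Interferon genes themselves were scarce. Ifnb1 never exceeded 0.23 TPM, and 8 of the 20 genes of interferons and direct targets were not listed. Among targets listed but too low to test, Ifit1 never exceeded 0.13 TPM, Ifit3 0.57 TPM, Cxcl9 0.04 TPM and Ccl5 1.61 TPM. The tested genes numbered 6. Of these, Rsad2 (viperin), Isg15 and Ifit2 were called higher in both derivatives, and Cxcl10, Usp18 and Cmpk2 in neither, where 13.3% of all tested genes were called higher in both. That count rests partly on Rsad2, which entered the test only through the derivatives. Rsad2 rose from 0.617 ± 0.225 TPM to 1.51 ± 0.226 and 2.46 ± 0.0265 TPM, by 0.64 and 1.11 (adjusted p = 0.00467 and 0.000124 in limma). In MC38-P it never exceeded 0.81 TPM, so only derivative libraries reached the 1 TPM needed for testing, and its rise is a description. Isg15, a ubiquitin-like modifier, rose by 0.80 and 0.81. Usp18, which removes it, differed by -0.04 and 0.04 and did not pass.

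For each gene called in both derivatives, the 3 tested genes with the most similar profile over the 9 libraries were found by the root mean square difference of log2(TPM + 1) after centring each gene on its own mean. Tlr3 was nearest to Rsad2, an interferon-induced antiviral gene, at 0.0393, and then to Rnf157 and St3gal1. Rsad2 never exceeded 0.81 TPM in MC38-P, so only derivative libraries brought it into the tested set. Adding 1 TPM also understates its change. Its means were 0.617, 1.51 and 2.46 TPM, and those of Tlr3 were 4.20, 7.44 and 10.3 TPM. Ifih1 was nearest to Tmem229b, at 0.0658, Serpinb2 and Vcam1, and Tbk1 to Trim26, at 0.026, Sppl2a and Nrd1. Dhx58 was nearest to Mlycd, at 0.0869, Eid2b and Ap3b2. These are descriptions over libraries that share the 3 lines and the length trend.

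Marker genes of other cell types were read beside these results. Of 16 hematopoietic and macrophage markers 9 were listed, and their summed level was 39.7 to 41.4 TPM in MC38-P, 49.25 to 54.2 TPM in MC38-LM3a and 56.1 to 60.5 TPM in MC38-LM3b, so it moved in the direction of Ifih1, Tlr3 and Tbk1. Only Cd68 and Cd14 reached 1 TPM, and the defining genes Ptprc, Csf1r and Itgam never exceeded 0.14 TPM. Hepatocyte markers, 4 of 7 listed, summed to at most 0.89 TPM and endothelial markers, 5 of 7 listed, to at most 1.90 TPM, and the T and B cell markers, 1 of 7 listed, stayed at or below 0.18 TPM. Stellate and fibroblast markers, 6 of 8 listed, summed to 135 to 172 TPM in MC38-P, 54.1 to 72.7 TPM in MC38-LM3a and 65.4 to 72.3 TPM in MC38-LM3b. Most of that sum was Col3a1, with means of 140.5, 54.95 and 60.9 TPM, whereas Pdgfrb of the same list measured 1.54, 2.13 and 3.66 TPM. The epithelial markers summed to 2003 to 2318 TPM, 1591 to 1810 TPM and 1583 to 1628 TPM. The part of these lists in the results was not tested.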

How the data were processed

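Poly(A) RNA of the parental line and both derivatives (3 libraries each) was sequenced on the DNBSEQ platform. The authors deposited 1 table per library of TPM values, rounded to 2 decimals, and TPM keep no depth. The submitters' processing notes name HISAT and GRCm39. The quantification tool is not given in the sources used here. Groups came from the sample labels. Where the labels do not say that libraries came from separate cultures, p-values measure only the spread between these samples.

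Values were analysed as log2(TPM + 1) for the 11287 genes that reached 1 TPM in 3 or more of 9 libraries, with a mean per group, moderated and trended variances (limma 3.58.1, R 4.3.3) and Benjamini-Hochberg adjustment over all tested genes. Genes were called at an adjusted p under 0.05. Gene positions and promoters came from RefSeq (GRCm38.p6), another build than those notes name. GC content and length (GENCODE M21, 98.3% of tested genes) entered a loess correction of span 0.3 per library, which also centres libraries. The procedure was tested on simulated data. Alternatives were a pseudocount of 0.1, no filter, other scalings, a replicate block, other sets of libraries and leaving out each library. Count models could not be run on TPM.

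The members and lists were chosen with earlier results of these data known. Every sensor is named. From each list, the text names the gene with the largest mean rise and the largest mean fall among genes called alike in both derivatives and genes with a log2 fold change above 1. A gene of these lists is counted with its list but not reported here by name. Other partners, and the ratios between genes, were chosen after their values were seen.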

Additional observations from a re-analysis of the deposited data

How the results depend on the processing

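The call of Ifih1 and of Tlr3 in both derivatives held in all 19 alternatives, with differences of 1.12 to 1.54 and 1.37 to 1.89 for Ifih1 and 0.49 to 0.82 and 0.78 to 1.29 for Tlr3. In MC38-LM3b against MC38-P the same 5 sensors were called in all 19. In MC38-LM3a against MC38-P 4 sensors were called, but 2 (Ifih1 and Tlr3) when only the compared libraries were fitted, and 2 to 4 when 1 library was left out, with 2 without MC38-P replicate 2. Of the partners, 39 were called there, but 62 with median centring, 72 with the GC and length correction, 70 with it and the replicate block, 74 without replicate 3 of MC38-P and MC38-LM3a (29 higher and 45 lower, against 18.4% and 45.2% of all genes), 25 when only the compared libraries were fitted, and 26 to 47 when 1 library was left out. The correction without both replicates, chosen after seeing the data, gave 75. The share of all tested genes called moved with these counts, from 28.0% to 40.0%, 52.3%, 49.1%, 63.6% and 18.9% in the same order, 18.6% to 37.4% when 1 library was left out and 56.9% in the last.

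Between the derivatives 0 sensors and 0 partners were called, but 6 (among them Sting1, 0.15, adjusted p = 0.0183) and 89 without both replicates, where 71.7% of all tested genes were called, 0 to 5 and 0 to 75 when 1 library was left out (5 and 75 without MC38-LM3a replicate 3, against 56.4% of all genes), and 1 (Ddx58, 0.15, adjusted p = 0.022) and 34 with both replicates left out and the correction, against 27.7%. In the correction of all libraries 0 were called. The cause was not tested. Replicates with the same number did not deviate together (r from -0.66 to 0.07), and 3 of 9 libraries correlated best with a library of their own number. The length trend enters these deviations, so they cannot show what a shared number stands for. With the replicate block 3, 5 and 0 sensors and 28, 57 and 0 partners were called, against 19.5%, 34.5% and 0.0177% of all genes. As TPM keep no depth, no limit from counting can be set on Cgas. Where a line was left with 2 libraries, the spread was pooled over lines.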

Other observations

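Ratios of levels within a library cancel any scaling of the whole library, though not the length trend. They were chosen after the values were seen and are given as a description. The level of Ifih1 was 0.0931 to 0.102 of that of Ddx58 in MC38-P. It was 0.207 to 0.227 in MC38-LM3a and 0.218 to 0.241 in MC38-LM3b, so that both derivatives lay above MC38-P without overlap. Relative to Tlr3, Ifih1 stood at 0.754 to 0.874 in the parental line, at 1.25 to 1.44 in MC38-LM3a and at 1.20 to 1.33 in MC38-LM3b. Ddx58 relative to Mavs, the receptor to its adaptor, ranged from 0.975 to 1.11, from 1.35 to 1.51 and from 1.49 to 1.53. Ikbke relative to Tbk1, the inducible kinase to the constitutive one, ranged from 0.0691 to 0.0875, from 0.107 to 0.135 and from 0.142 to 0.154. Tlr3 relative to its adaptor gene Ticam1 ranged from 0.286 to 0.351, from 0.396 to 0.432 and from 0.444 to 0.472.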
